A study of Mus musculus with 12 samples.

Results

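The cytoplasmic tRNA synthetases and the translation initiation factors were followed in mifepristone-treated C4-HD mammary carcinomas as 38 listed gene symbols, of which 35 were measured among the 18193 genes tested. A probe set was taken for a gene where the array's annotation gave that symbol alone, with a trailing 1 allowed for synthetases. The 35 measured genes were 19 synthetases and 16 initiation factors with their inhibitors. They had 88 of the 45101 probe sets, 11 genes having 1 probe set and 24 having several. Dars, Eif2s1 and Eif4g1 were not analysed here.

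C4-HD is a transplantable mouse mammary carcinoma whose growth depends on a progestin, so every group derives from a single tumour line. All tumours had been grown in BALB/c mice carrying a pellet of the progestin medroxyprogesterone acetate (MPA). In 4 groups the pellet was exchanged, at a tumour size of 50 mm2, for one of the antiprogestin mifepristone (MFP, 10 mg/kg/day), and the labels place these groups 6 h, 12 h, 24 h or 48 h into MFP treatment. A further group is named no MPA, with a label of saline for 48 h, and the controls are tumours with MPA. Each of the 6 groups has 2 arrays, 12 in all. The contrast of MFP with MPA therefore changes both agents at once. The series text names the groups of 12 h, 24 h and 48 h but no group of 6 h, and the protocols also call saline-treated tumours with MPA the control. The text calls the replicates independent, but no label ties an array to a particular animal, so the p-values cover the spread among these samples, which may be technical.

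The first step of protein synthesis is the charging of tRNAs, in which a synthetase joins each amino acid to its tRNAs. Initiation then brings the ribosome to the start codon: eIF2, reloaded with GTP by eIF2B, carries the initiator tRNA, eIF3 organises the small ribosomal subunit, and the cap-binding protein eIF4E with the helicase eIF4A recruits the mRNA. The 4E-BP proteins hold eIF4E away from that complex until mTORC1 phosphorylates them. Many of these genes are known targets of MYC, and many synthetase genes are induced by ATF4 when amino acids are short.

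All values are log2 ratios, taken against the mean of both MPA arrays on the linear scale, so 0 is the MPA level and negative values lie below it. A fold change is the difference of 2 group means on this scale, given with its standard error (SE) from a limma model over all 12 arrays. A gene was called where its p-value, adjusted over all 18193 genes, was under 0.05. Levels above background and levels between genes cannot be read from such ratios, and in tumour RNA less RNA per cell cannot be told apart from fewer cells of the type that makes it.

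The arrays differed beyond the members. The 3' over 5' log2 ratio of the Actb control probe sets was 0.20 and 0.13 in the arrays of 6 h of MFP, 0.34 and 0.36 in the 12 h arrays, 0.35 and 0.50 in the 24 h arrays, and 0.47 and 0.59 in the 48 h arrays, against -0.07 and 0.05 with MPA. Exocrine pancreas markers (16 of 20 listed were measured) had array medians of 5.95 and 4.41 in the 6 h arrays, 0.17 and 0.87 in the 12 h arrays, 0.995 and 6.63 in the 24 h arrays, and 4.69 and 5.44 in the 48 h arrays, against 0.48 and -0.72 with MPA. Liver markers (18 of 19) reached 3.54 and 4.14 at 24 h, against 0.87 and -2.55 with MPA. Skeletal muscle markers (15 of 15) reached 4.24 in 1 array at 48 h and at most 0.80 in the others. Macrophage markers (12 of 13) stood at 1.85 and 1.97 and fibroblast markers (12 of 12) at 1.48 and 1.77 at 48 h, against -0.90 and 0.55 and against -0.98 and 0.58 with MPA. Epithelial markers (10 of 10), which the mammary carcinoma label calls for, had medians of 0.48 and 0.36 in the 12 h arrays and of -0.95 and -0.25 in the 48 h arrays, against 0.05 and -0.06 with MPA. At 12 h the pancreas and liver medians were thus near or below the higher MPA array, while at 6 h, 24 h and 48 h at least one of them was far above MPA. The part of these differences in the results that follow was not tested.

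The members lay below the MPA level as a group from the first time point on. Their median log2 ratio was -0.73 and -0.67 in the 6 h arrays, -0.56 and -0.60 in the 12 h arrays, -0.51 and -0.42 in the 24 h arrays, and -0.49 and -0.33 in the 48 h arrays, against -0.04 and 0.04 with MPA. In tumours without MPA the medians were 0.18 and 0.02, on the other side of 0 from the MFP arrays. Over all genes the median fold change against MPA was 0.02, 0.02, -0.03 and 0.00 from 6 h to 48 h, whereas over the members it was -0.65, -0.61, -0.46 and -0.27 in the same order of times. The member medians are a description of the list and were not tested.

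**Figure D1:**
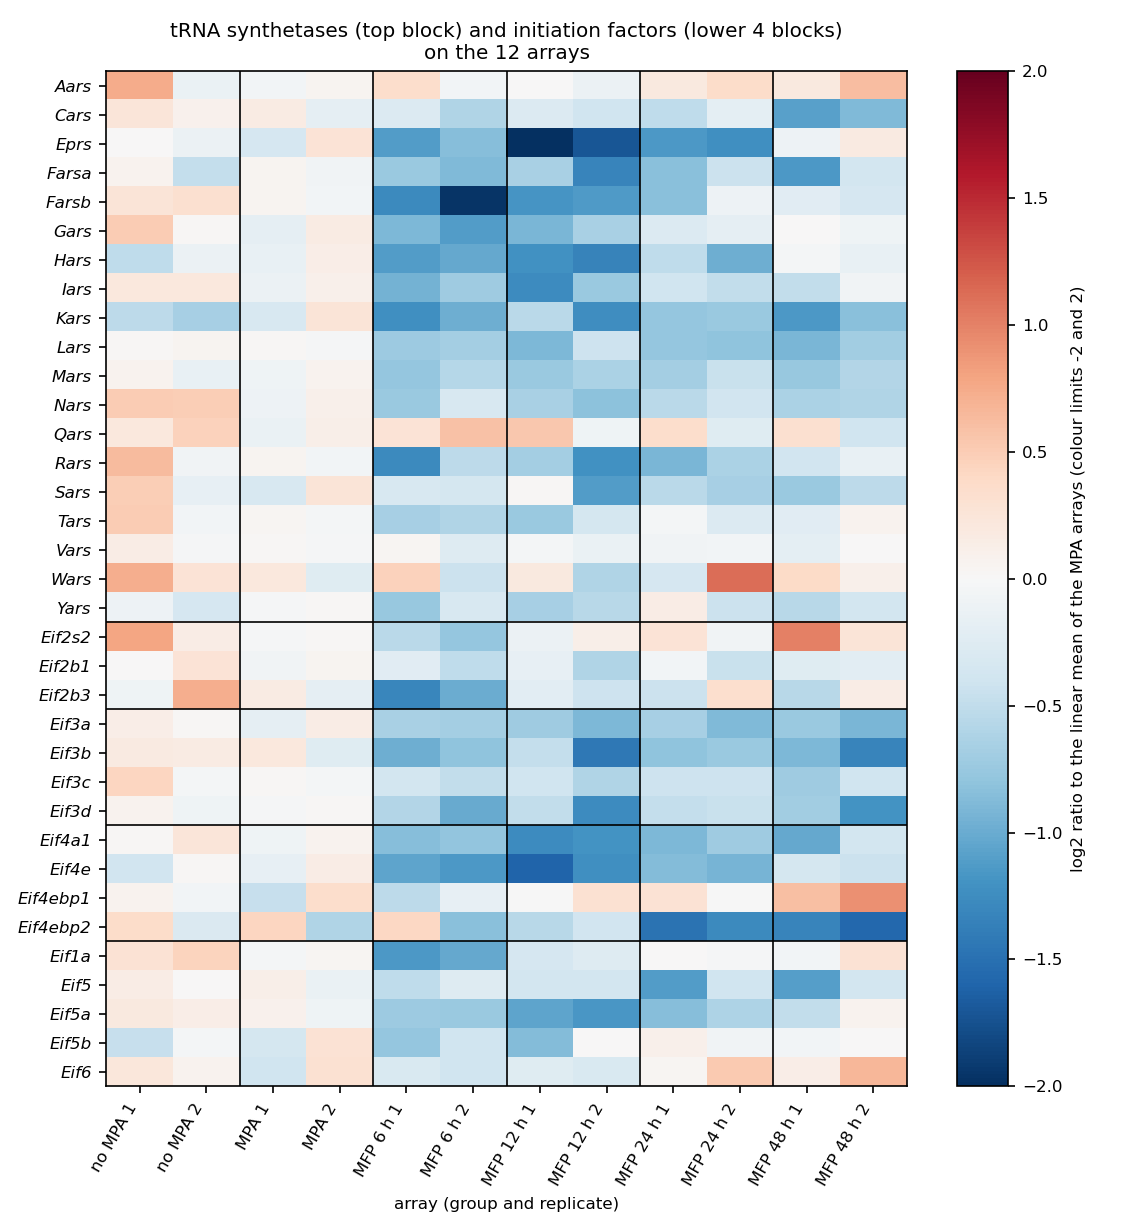
Log2 ratio of each of the 35 genes (rows, synthetases on top and initiation factors in 4 blocks below) on each of the 12 arrays (columns), with blue for values below the MPA mean and red above it. The MFP columns are mostly blue, with medians between -0.73 and -0.33, while Aars, Vars, Qars and Wars stay pale or mixed.

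At 6 h of MFP 3 of the 35 members fell and none rose, against falls in 0.94% and rises in 0.313% of all genes. They were Farsb, the beta subunit of phenylalanyl-tRNA synthetase (-1.61 ± 0.28, adjusted p = 0.0283), Eif4e, the cap-binding protein (-1.10 ± 0.22, adjusted p = 0.0465), and Eif1a, a factor for scanning of the mRNA (-1.08 ± 0.19, adjusted p = 0.0296). The fold change was below 0 for 32 of the 35 members and for 8648 of all 18193 genes. When any 1 of the 4 arrays was left out, none of the 3 stayed under the threshold, and none did in a fit to those 4 arrays alone.

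At 12 h 7 members fell and none rose, against falls in 2.62% and rises in 1.66% of all genes. The largest fall was in Eprs, the synthetase that charges both glutamate and proline tRNAs, at -1.95 ± 0.26 (adjusted p = 0.00767), which is 0.258 times the MPA level. Eif4e followed at -1.41 ± 0.22 (adjusted p = 0.0101), then Hars at -1.27, the helicase Eif4a1 at -1.23, Farsb at -1.16, Eif5a at -1.11 and Iars at -0.996, with adjusted p-values from 0.0166 to 0.0486. Hars and Iars are the histidyl- and isoleucyl-tRNA synthetases, and Eif5a, a protein that carries the modified amino acid hypusine, helps the ribosome through stretches such as runs of proline. For all 7 the arrays of 12 h lay below both MPA arrays, a separation whose share over all genes is not given here. Leaving out 1 of the 4 arrays kept between 0 and 3 of these calls (3 when MPA replicate 1 was left out, 1 for MPA replicate 2, 0 for replicate 1 of 12 h and 1 for replicate 2 of 12 h).

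At 24 h the falls were in 4 members, Eprs (-1.16 ± 0.26), Eif4e (-0.89 ± 0.22), the leucyl-tRNA synthetase Lars (-0.79 ± 0.21) and Eif3a, the largest subunit of eIF3 (-0.76 ± 0.20), with adjusted p-values from 0.0248 to 0.0423. No member rose, and 4.2% of all genes fell and 4.55% rose. At 48 h 5 members fell and none rose, against 6.02% and 6.47% of all genes. These were Eif3b at -1.09 ± 0.31, a scaffold subunit of eIF3, the cysteinyl- and lysyl-tRNA synthetases Cars and Kars at -0.97 ± 0.22 and -0.97 ± 0.28, Eif3a at -0.82 ± 0.20 and Lars at -0.80 ± 0.21, with adjusted p-values from 0.0201 to 0.0493. The 24 h calls came to 1, 0, 1 and 0 without MPA replicate 1, MPA replicate 2, MFP 24 h replicate 1 and MFP 24 h replicate 2. The 48 h calls came to 0, 3, 0 and 1 without MPA replicate 1, MPA replicate 2, MFP 48 h replicate 1 and MFP 48 h replicate 2, and 1 of the 3 was among the 5. The call without MFP 24 h replicate 1 (Hars) and that without MFP 48 h replicate 2 (Eif4a1) were not among the calls from all arrays.

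**Figure D2:**
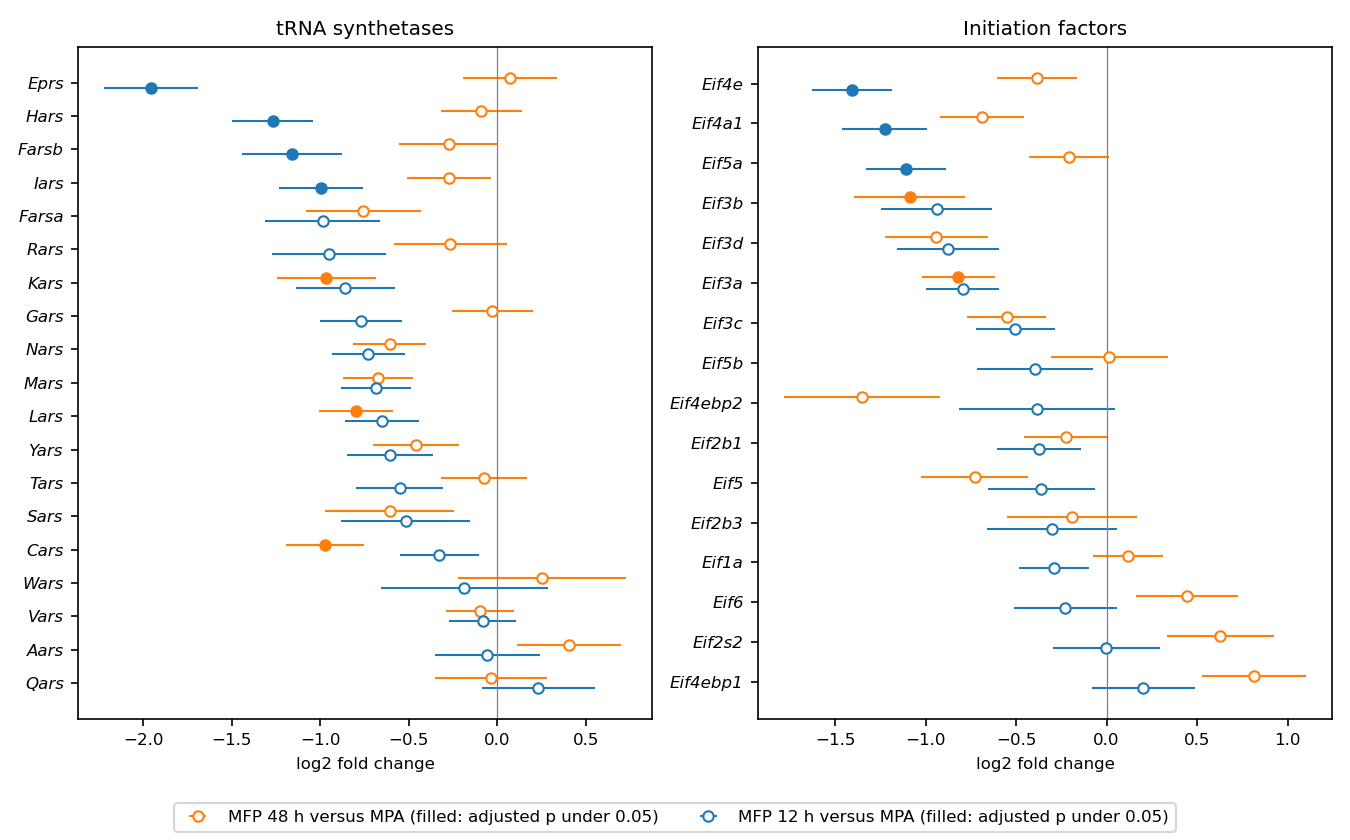
Log2 fold change against MPA (horizontal axis) with its standard error (bars) for each of the 19 synthetases (left) and 16 initiation factors (right), at 48 h (orange) and 12 h (blue) of MFP, ordered by the 12 h value. Eprs is at 0.07 at 48 h and at -1.95 at 12 h, while Eif3a is at -0.82 and -0.80 and Cars at -0.97 and -0.33 at these times.

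The members followed different courses over time. The direct contrast of 48 h with 12 h of MFP, chosen after the values by time had been seen, had 4 members that rose and none that fell, against rises in 4.69% and falls in 3.35% of all genes. They were Eprs (2.03 ± 0.26, adjusted p = 0.00714), Hars (1.18 ± 0.23, adjusted p = 0.0156), Eif4e (1.02 ± 0.22, adjusted p = 0.0228) and Eif5a (0.90 ± 0.22, adjusted p = 0.0348). Without replicate 1 or replicate 2 of 12 h none of the 4 was called, and without replicate 1 or replicate 2 of 48 h 2 and 1 were. With the mean of a gene's probe sets the differences were smaller, at 0.88 for Eprs, 0.79 for Hars, 0.58 for Eif5a and 0.27 for Eif4e, and that of Eif4e was no longer called (adjusted p = 0.309). With these means 5 members rose, Gars and Iars being the further ones, against 4.89% of all genes.

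Eprs had log2 ratios of -1.12 and -0.85 in the 6 h arrays, -2.26 and -1.72 in the 12 h arrays, -1.16 and -1.23 in the 24 h arrays, and -0.10 and 0.18 in the 48 h arrays, against -0.34 and 0.28 with MPA. The arrays of the first 3 times all lay below both MPA arrays, and those of 48 h lay among them. Hars was at -1.12 and -1.02, then -1.22 and -1.33, then -0.51 and -0.98, and then -0.04 and -0.15 at the 4 times, against -0.14 and 0.13 with MPA. It too overlapped MPA at 48 h alone among the 4 times.

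Eif4e stood at -1.06 and -1.15 in the 6 h arrays, -1.61 and -1.22 in the 12 h arrays, -0.87 and -0.93 in the 24 h arrays, and -0.36 and -0.42 in the 48 h arrays, against -0.16 and 0.14 with MPA. No MFP array of Eif4e overlapped the MPA arrays, even at 48 h, where the difference of -0.38 ± 0.22 did not pass the test. Eif5a stood at -0.73 and -0.74, then -1.06 and -1.16, then -0.86 and -0.62, and then -0.49 and 0.06 at the 4 times, against 0.08 and -0.09 with MPA. Its arrays of 48 h differed from each other by more than those of the earlier times and overlapped MPA.

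Over the 8 MFP arrays a slope per doubling of the time was fitted as well. It rose in 6 members and fell in 1, against rises in 6.8% and falls in 4.39% of all genes. The rises were in Farsb (0.47 ± 0.09 per doubling, adjusted p = 0.0137), Eif2s2 (0.40 ± 0.09), Eif1a (0.39 ± 0.08), Gars (0.35 ± 0.06, adjusted p = 0.0081), Hars (0.35 ± 0.09) and Eif4ebp1 (0.33 ± 0.08), and the fall was in Eif4ebp2 (-0.46 ± 0.12, adjusted p = 0.039). The sign of a slope says only how the MFP times are ordered, not where they lie relative to MPA. Leaving out 1 array gave between 2 and 6 calls: 2 without either array of 6 h, 4 without 12 h replicate 1 or either array of 48 h, 5 without 12 h replicate 2 or 24 h replicate 1, and 6 without 24 h replicate 2.

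Gars, the glycyl-tRNA synthetase, was at -0.90 and -1.12 in the 6 h arrays, -0.91 and -0.66 in the 12 h arrays, -0.27 and -0.18 in the 24 h arrays, and 0.01 and -0.09 in the 48 h arrays, against -0.19 and 0.16 with MPA. Its arrays of 6 h and 12 h lay below MPA with fold changes of -1.0 ± 0.23 and -0.77 ± 0.23 that did not pass the test (adjusted p = 0.0698 and 0.0955), and those of the later times overlapped MPA. Farsb was at -1.28 and -1.96, then -1.19 and -1.14, then -0.84 and -0.10, and then -0.22 and -0.33 at the 4 times, against 0.05 and -0.05 with MPA. Its arrays of 24 h lay far apart, and all MFP arrays lay below MPA. Eif1a was at -1.15 and -1.02 in the 6 h arrays, -0.33 and -0.25 in the 12 h arrays, 0.01 and -0.02 in the 24 h arrays, and -0.06 and 0.30 in the 48 h arrays, against -0.04 and 0.04 with MPA, so that it stood apart from MPA at 6 h and by a smaller amount at 12 h.

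**Figure D3:**
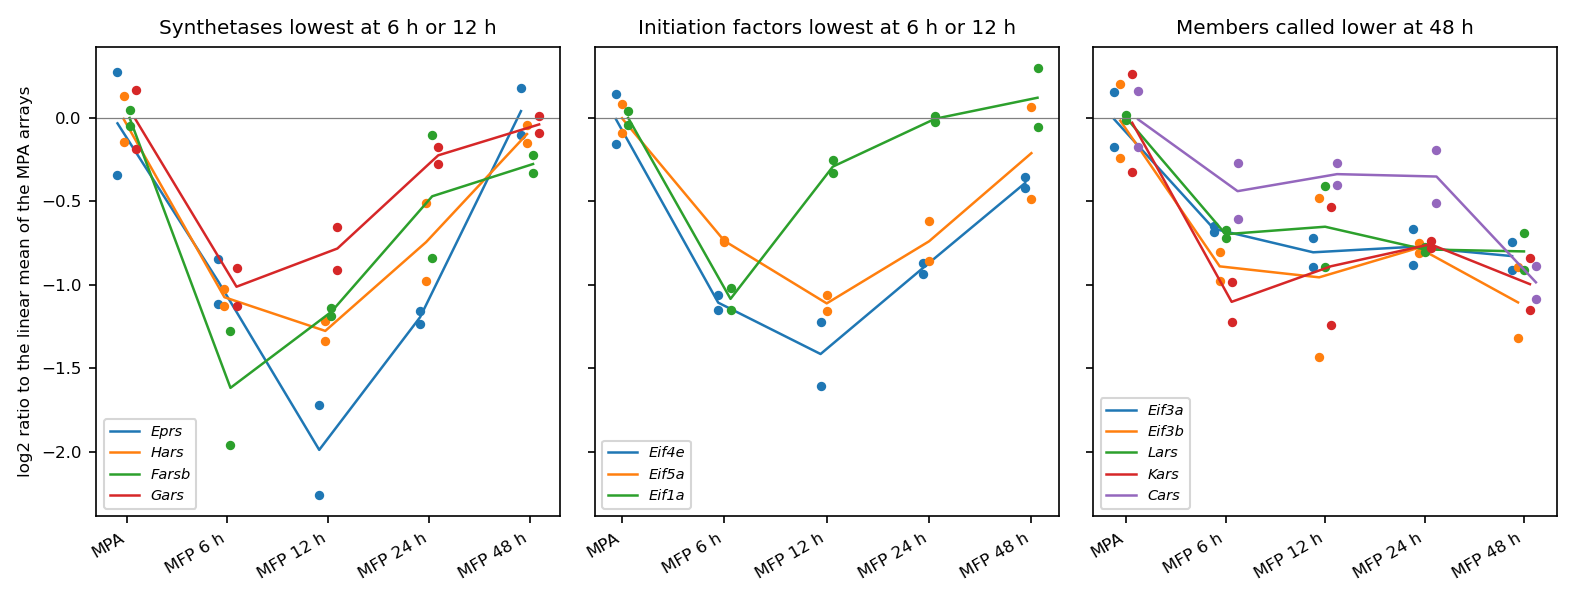
Log2 ratio (vertical axis) of 12 members on each array (points) with group means (lines), from MPA through the 4 MFP times. Eprs, Hars, Farsb, Gars, Eif4e, Eif5a and Eif1a (left and middle) are lowest at 6 h or 12 h, and Eif3a, Eif3b, Lars, Kars and Cars (right) were called lower at 48 h.

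The sequences before the start of 5 members that have a motif match are shown, and their genes took different courses: Eif4e, Eif4a1 and Farsb were among the early falls, Gars was low at 6 h and 12 h without passing the test, and Aars was not low. They are the 250 bases before the start in RefSeq's GRCm38.p6 annotation, at chr3:138527018-138527267 (plus strand) for Eif4e, chr11:69672424-69672673 (minus strand) for Eif4a1, chr1:78488898-78489147 (minus strand) for Farsb, chr6:55037751-55038000 (plus strand) for Gars and chr8:111033592-111033841 (plus strand) for Aars. Each is written from 5′ to 3′ on the gene's own strand. Capitals mark CACGTG, the E-box that MYC and its relatives can bind, and TGATGNAA, the core of the element that ATF4 binds together with a C/EBP protein, read on either strand, so that it appears as TTTCATCA in Gars and TTGCATCA in Aars.
Eif4e: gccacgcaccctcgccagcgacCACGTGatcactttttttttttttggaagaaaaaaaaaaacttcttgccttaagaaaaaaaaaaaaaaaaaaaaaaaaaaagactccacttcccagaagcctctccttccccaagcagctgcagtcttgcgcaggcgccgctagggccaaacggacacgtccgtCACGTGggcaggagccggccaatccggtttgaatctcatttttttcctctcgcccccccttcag
Eif4a1: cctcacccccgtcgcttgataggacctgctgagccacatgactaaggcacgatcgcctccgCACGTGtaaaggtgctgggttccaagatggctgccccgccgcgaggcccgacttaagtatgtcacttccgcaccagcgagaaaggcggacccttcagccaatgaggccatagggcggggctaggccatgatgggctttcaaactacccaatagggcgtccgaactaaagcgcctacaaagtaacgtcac
Farsb: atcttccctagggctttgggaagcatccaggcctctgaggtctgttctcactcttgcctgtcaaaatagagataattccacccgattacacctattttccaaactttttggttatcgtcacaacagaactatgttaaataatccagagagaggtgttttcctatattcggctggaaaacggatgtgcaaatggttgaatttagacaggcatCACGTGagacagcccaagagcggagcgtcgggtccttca
Gars: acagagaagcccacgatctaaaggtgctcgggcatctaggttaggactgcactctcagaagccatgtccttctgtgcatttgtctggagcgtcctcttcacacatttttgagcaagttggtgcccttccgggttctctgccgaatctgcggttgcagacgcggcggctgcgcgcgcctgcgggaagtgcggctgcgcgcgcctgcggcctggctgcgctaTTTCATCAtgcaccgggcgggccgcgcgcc
Aars: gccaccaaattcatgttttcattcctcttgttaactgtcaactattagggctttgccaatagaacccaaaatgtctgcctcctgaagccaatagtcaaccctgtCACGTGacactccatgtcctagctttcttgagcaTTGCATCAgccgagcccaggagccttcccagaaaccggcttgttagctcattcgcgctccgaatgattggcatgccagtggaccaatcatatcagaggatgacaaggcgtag

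In the sequence shown Eif4e has 2 E-boxes, 228 and 64 bases before its start, Eif4a1 has 1 at 189 bases and Farsb 1 at 39 bases. Gars has the C/EBP-ATF core 30 bases before its start, and Aars has an E-box at 146 bases and the core at 112 bases. Both motifs were searched on both strands of windows of 300 bases, from 250 before to 50 after the start, and they share no overlapping match in these windows. Where a gene had several windows, the sequence shown is from the one with the most matches. Eif4e has 2 windows, and the one not shown has no match. Of the 35 members 24 had a window. CACGTG was found in 8 of them (Aars, Eif3a, Eif4a1, Eif4e, Eif5a, Farsb, Iars and Tars), against 8.09% of all 27025 genes with a window. TGATGNAA was found in 5 (Aars, Gars, Iars, Tars and Yars), against 4.51% of genes. Eprs and Hars, which were low at 12 h, are not among the matches. A member without a window could not match, and whether Eprs and Hars had a window is not stated here. A match is a description of these letters, not evidence of binding.

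The eIF3 subunits lay below MPA at all 4 times in their chosen probe sets. Eif3a was at -0.65 and -0.68 in the 6 h arrays, -0.72 and -0.89 in the 12 h arrays, -0.66 and -0.88 in the 24 h arrays, and -0.74 and -0.91 in the 48 h arrays, against -0.17 and 0.16 with MPA. All 8 MFP arrays lay below MPA, and the order of the times stayed within the spread between the arrays of 24 h. Eif3b was at -0.98 and -0.80, then -0.48 and -1.43, then -0.81 and -0.75, and then -0.89 and -1.32, against 0.20 and -0.24 with MPA. Its 12 h arrays were the farthest apart, and all 8 MFP arrays lay below MPA. The subunits Eif3c and Eif3d were also below both MPA arrays on all 8 MFP arrays, with fold changes of -0.55 to -0.41 for Eif3c and -0.94 to -0.47 for Eif3d, none of which passed the test against MPA. In the contrast of 48 h with 12 h the 4 eIF3 fold changes lay between -0.15 and -0.02, and none was called. The other probe sets gave other courses. The 3 other probe sets of Eif3a had fold changes of -0.86 to -0.48 at 6 h and of -0.38 to -0.21 at 48 h, and the mean of its 4 probe sets was at -0.68, -0.56, -0.45 and -0.43 from 6 h to 48 h, called at 6 h and 12 h and not at 24 h or 48 h. Of the 4 probe sets of Eif3c 2 lay between 0.00 and 0.07 from 12 h on. The second probe set of Eif3d was at -0.06 at 6 h and at -0.72 at 48 h, and with the mean of both Eif3d was called at 48 h (-0.83 ± 0.22, adjusted p = 0.0388).

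Lars and Kars also lay below MPA at all 4 times. Lars was at -0.72 and -0.67 in the 6 h arrays, -0.90 and -0.41 in the 12 h arrays, -0.78 and -0.80 in the 24 h arrays, and -0.91 and -0.69 in the 48 h arrays, against 0.02 and -0.02 with MPA. Kars was at -1.22 and -0.98, then -0.53 and -1.24, then -0.78 and -0.73, and then -1.15 and -0.84, against -0.32 and 0.26 with MPA. Neither gene overlapped MPA at any time, and Kars was also low without MPA, at -0.52 and -0.67, a difference that did not pass the test. Cars was at -0.27 and -0.61 in the 6 h arrays, -0.27 and -0.40 in the 12 h arrays, -0.51 and -0.19 in the 24 h arrays, and -1.08 and -0.89 in the 48 h arrays, against 0.16 and -0.18 with MPA. Its 48 h arrays lay below all its other arrays, although the contrast of 48 h with 12 h (-0.65 ± 0.22, adjusted p = 0.105) did not pass the test.

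The mean of the 4 MFP times was lower than MPA in 11 of the 35 members and higher in none, against falls in 4.69% and rises in 2.9% of all genes. The 8 largest falls among those whose MFP arrays all lay below MPA were Eif4e (-0.94 ± 0.17, adjusted p = 0.0133), Eif3b (-0.91 ± 0.24), Kars (-0.91 ± 0.22), Eif4a1 (-0.88 ± 0.19), Farsb (-0.88 ± 0.22), Eif3a (-0.76 ± 0.16), Lars (-0.73 ± 0.16) and the methionyl-tRNA synthetase Mars (-0.65 ± 0.16). Eprs (-0.997 ± 0.21, adjusted p = 0.0211), Hars and Eif5a also fell, although their 48 h arrays overlapped MPA. Mars stood between -0.78 and -0.45 on the 8 MFP arrays, against -0.08 and 0.08 with MPA, and was called at no single time, its closest being 48 h (-0.67 ± 0.20, adjusted p = 0.0508). This depends on the fit: Mars has 1 probe set, and the same values passed at 12 h (adjusted p = 0.044) and 48 h (adjusted p = 0.026) where the other genes were averaged over their probe sets, and at 48 h (adjusted p = 0.0427) where every probe set was fitted. Of the 11 calls 1 was left without MPA replicate 1 and 0 without MPA replicate 2. Without 1 MFP array between 6 and 9 members were called, with 6 without 6 h replicate 1, 6 h replicate 2 or 12 h replicate 2, and 7 without 48 h replicate 1.

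Eif4a1 stood at -0.85 and -0.78 in the 6 h arrays, -1.25 and -1.20 in the 12 h arrays, -0.89 and -0.71 in the 24 h arrays, and -1.02 and -0.36 in the 48 h arrays, against -0.08 and 0.08 with MPA, below MPA on all 8 MFP arrays. The eIF4E inhibitors had the opposite slopes to each other. Eif4ebp1 was at -0.53 and -0.16 in the 6 h arrays, -0.01 and 0.31 in the 12 h arrays, 0.30 and -0.01 in the 24 h arrays, and 0.60 and 0.92 in the 48 h arrays, against -0.45 and 0.34 with MPA. Its 48 h arrays were its highest, with a fold change against MPA of 0.81 ± 0.29 that did not pass the test (adjusted p = 0.0937). The fold change was 1.21 without MPA replicate 2, which is the higher of both MPA arrays, so that leaving it out raises the difference. Eif4ebp2 was at 0.41 and -0.84 in the 6 h arrays, -0.56 and -0.39 in the 12 h arrays, -1.48 and -1.28 in the 24 h arrays, and -1.32 and -1.56 in the 48 h arrays, against 0.42 and -0.60 with MPA. Its arrays of 24 h and 48 h lay below both MPA arrays, with fold changes of -1.29 ± 0.43 and -1.35 ± 0.43 that did not pass the test.

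The genes of eIF2 and eIF2B in the list were not called against MPA at any time. Eif2s2, the beta subunit of eIF2, was at -0.54 and -0.77 in the 6 h arrays, -0.12 and 0.11 in the 12 h arrays, 0.28 and -0.07 in the 24 h arrays, and 1.0 and 0.25 in the 48 h arrays, against -0.02 and 0.02 with MPA. In this chosen probe set Eif2s2 lay below MPA at 6 h and above it at 48 h. The mean of its probe sets had fold changes of -0.64, -0.49, -0.33 and -0.15 from 6 h to 48 h, none of them called. The eIF2B subunits Eif2b1 and Eif2b3 had fold changes between -0.38 and -0.23 and between -1.14 and -0.04. Among the late factors, Eif5, which triggers GTP hydrolysis by eIF2, had fold changes of -0.75 to -0.36, Eif5b, which joins the ribosomal subunits, -0.55 to 0.06, and Eif6, which keeps the large subunit free, -0.31 to 0.44, none of them called. The Eif5 values are those of its chosen probe set. The mean of the Eif5 probe sets had fold changes of -0.42, -0.22, -0.04 and -0.15 from 6 h to 48 h, so that the lower late values were not shared by this mean.

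Not every synthetase was low. Aars, the alanyl-tRNA synthetase, was at 0.36 and -0.06 in the 6 h arrays, 0.00 and -0.12 in the 12 h arrays, 0.20 and 0.37 in the 24 h arrays, and 0.19 and 0.62 in the 48 h arrays, against -0.05 and 0.05 with MPA. Of its 8 MFP arrays 5 lay above both MPA arrays, and none of its differences (-0.06 to 0.41) passed the test. These values are those of its chosen probe set. The mean of its probe sets had fold changes of -0.06, -0.08, 0.15 and 0.10 from 6 h to 48 h, none of them called. To account for the remaining synthetases, the valyl-, glutaminyl- and tryptophanyl-tRNA synthetases Vars, Qars and Wars had fold changes of -0.11 to -0.06, -0.04 to 0.43 and -0.19 to 0.41. Farsa, Rars, Nars, Yars, Sars and Tars, which charge phenylalanine (with Farsb), arginine, asparagine, tyrosine, serine and threonine, had negative fold changes at all 4 times, from -0.99 to -0.07. None of these 9 genes was called against MPA at any time in these values. With the mean of its 2 probe sets Nars was called at 6 h (-0.69 ± 0.14, adjusted p = 0.0387), 12 h (-0.73 ± 0.14, adjusted p = 0.0187) and 48 h (-0.50 ± 0.14, adjusted p = 0.0416) and in the mean of the MFP times (-0.59 ± 0.11, adjusted p = 0.0122). The Qars values are those of 1 of its 4 probe sets, and the mean of the 4 had fold changes of 0.08, -0.14, -0.21 and -0.22 from 6 h to 48 h, none of them called. The value of -0.99 is that of Farsa at 12 h in its chosen probe set. The mean of the Farsa probe sets had fold changes of -0.37, -0.34, -0.30 and -0.34 from 6 h to 48 h, none of them called.

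Without MPA no member was called, and no gene at all was (0% rose and 0% fell at the adjusted threshold, with 557 genes up and 641 down at an unadjusted p under 0.05, 1 of them a member, Nars). The fold change was above 0 for 26 of the 35 members, with a median of 0.16, and for 9284 of all 18193 genes, with a median of 0.01. The 3 members with the smallest p-values were Nars, Kars and Eif1a. Nars was at 0.51 and 0.49 without MPA, against -0.11 and 0.10 with MPA. Kars was at -0.52 and -0.67 without MPA, against -0.32 and 0.26 with MPA. Eif1a was at 0.30 and 0.44 without MPA, against -0.04 and 0.04 with MPA. The arrays do not overlap in these 3 genes, which were picked by their p-values. The share of all genes without overlap is not given here. None of the 3 passed the test (adjusted p = 0.737, 0.797 and 0.814). Gars (0.51 and 0.02), Eif4e (-0.38 and 0.02) and Aars (0.75 and -0.13) overlapped their MPA arrays.

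Set against the tumours without MPA, the tumours of 48 h of MFP had 8 members that fell and none that rose, where 5.03% of all genes fell and 7.49% rose. Nars was at -0.63 and -0.60 at 48 h, against 0.51 and 0.49 without MPA, a fold change of -1.11 ± 0.20 (adjusted p = 0.00768). Cars fell by 1.15 ± 0.22 (adjusted p = 0.00917), Eif3b by 1.28 ± 0.31, Eif4ebp2 by 1.48 ± 0.43 (adjusted p = 0.0489), Eif3a by 0.91 ± 0.20, Lars by 0.84 ± 0.21, Eif4a1 by 0.82 ± 0.23 and Eif3c by 0.75 ± 0.22 on the log2 scale. Eif3a, Eif3b, Lars and Cars were thus called at 48 h against both groups in their chosen probe sets. Both contrasts share the 48 h arrays. With the mean of a gene's probe sets Cars (-0.50), Eif3c (-0.31) and Eif4ebp2 (-0.45) were not called against no MPA, while Mars and Eif3d were. Of Eif3a, Eif3b, Lars and Cars, only Eif3b and Lars were called against both groups with these means. Without no MPA replicate 1 none of the 8 was called, without no MPA replicate 2 there were 2, and without either 48 h array there were 3.

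Where a gene has several probe sets they did not always move alike. The value used for a gene was that of its probe set with the largest SD over the 12 arrays, a rule that favours probe sets that change. Among all 88 probe sets of the members 79 were below 0 at 6 h, 74 at 12 h and 64 at each later time. In a fit of every probe set 6, 13, 6 and 8 of the 88 fell at these times, against 0.841%, 2.2%, 3.61% and 5.35% of all 34945 probe sets with 1 symbol. None of the 88 rose against MPA, and no member had probe sets called in opposite directions. With the mean of each gene's probe sets 6, 8, 4 and 6 members fell at the 4 times, against 1.35%, 2.89%, 4.58% and 6% of all genes, but they were partly other members. This lost Farsb and Eif4e and gained Eprs, Gars, Nars, Eif3a and Eif4a1 at 6 h, and it lost Iars and Eif4e and gained Mars, Nars and Eif3a at 12 h. At 24 h it lost Eif3a and Eif4e and gained Hars and Eif4a1, and at 48 h it lost Cars and Eif3a and gained Mars, Nars and Eif3d. In the mean of the MFP times 11 members fell, against 4.88% of all genes, with Nars gained and Farsb lost. The slope rose in 5 members, against 6.77% of all genes, with Iars gained and with Hars and the 4E-BP genes lost.

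Eprs shows how far the time course depends on the probe set. Its chosen probe set was at 0.07 at 48 h, while the other 3 were at -0.82, -0.58 and -0.43, the first of them called. At 12 h all 4 were below 0, at -1.95, -1.82, -1.05 and -0.47, and the first 3 were called. For Eif4e the 2 probe sets with the larger changes were at -1.41 and -0.81 at 12 h, both called, and the other 2 were at 0.08 and 0.20. The position of Eif2s2 above MPA at 48 h also rests on 1 of its 6 probe sets: the chosen one was at 0.63 and the others lay between -0.81 and 0.05, with the lowest called. Its slope over the MFP times was above 0 in all 6 probe sets (0.02 to 0.40 per doubling, 1 of them called), and it was called with their mean too (0.16 ± 0.04, adjusted p = 0.029).

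The 3 probe sets of Eif4ebp1 were at 0.81, 0.66 and -0.49 at 48 h, and those of Eif4ebp2 at -1.35 for the chosen one and between -0.47 and 0.20 for the other 4. The second probe set of Cars was at 0.14 at 48 h, against -0.97 for the chosen one, and neither the late fall of Cars nor the slopes of the 4E-BP genes was thus shared by all their probe sets. Hars at 12 h was at -1.27 and -0.76, Iars at -0.996 and -0.53, Eif4a1 at -1.23, -0.77 and -0.66, Eif5a at -1.11 and -0.40, and the 4 probe sets of Farsb between -1.16 and -0.27, below 0 throughout. Gars, Kars, Lars, Mars and Eif3b had 1 probe set each.

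**Figure D4:**
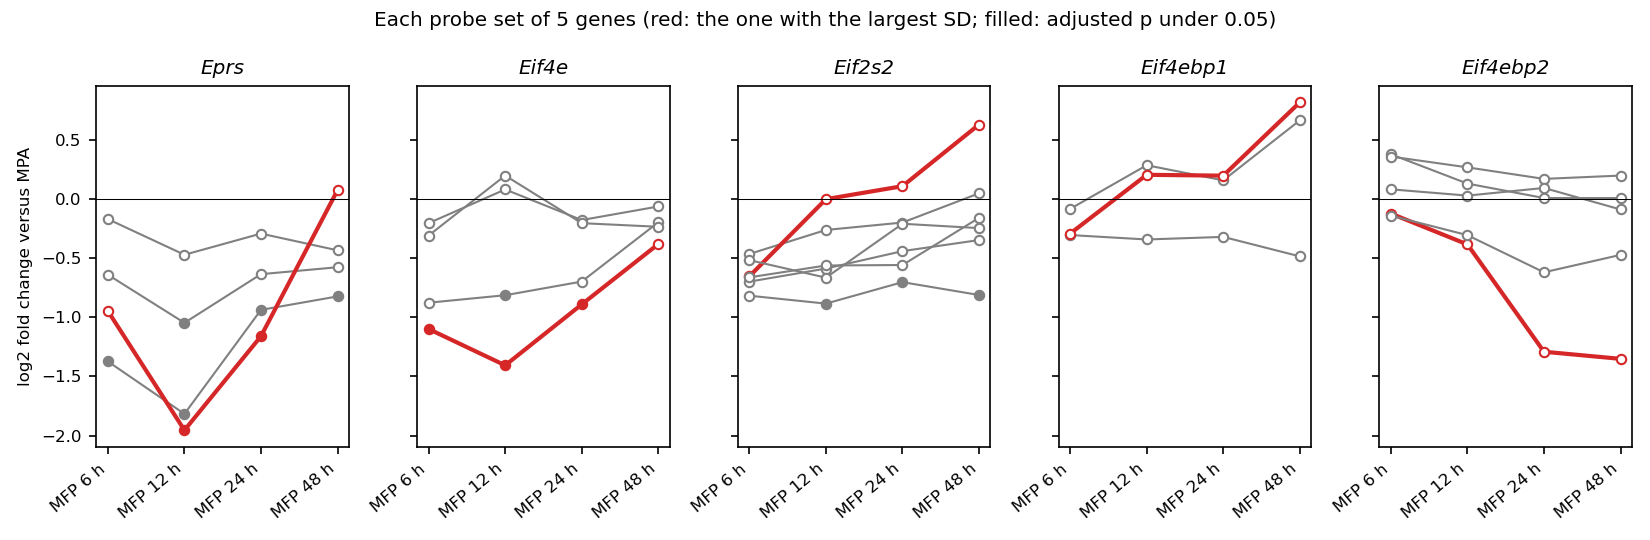
Log2 fold change against MPA (vertical axis) at the 4 MFP times for every probe set of Eprs, Eif4e, Eif2s2, Eif4ebp1 and Eif4ebp2, with the one used for the gene in red and called values filled. At 48 h the chosen probe set is the highest one for Eprs (0.07), Eif2s2 (0.63) and Eif4ebp1 (0.81) and the lowest for Eif4ebp2 (-1.35).

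Genes that work beside the members gave a further comparison, from lists chosen with earlier results of these data known. Of 27 other initiation factors measured, 0 fell at 6 h, 1 did at 12 h, 2 did at 24 h and 4 did at 48 h, and none rose against MPA. Over all genes the falls at these times were 0.94%, 2.62%, 4.2% and 6.02%, and the shares of the 27 factors were 0%, 3.7%, 7.41% and 14.8%. Their median fold changes were -0.25, -0.34, -0.36 and -0.32 at these times, between those of the members and of all genes at 6 h, 12 h and 24 h and below those of the members at 48 h. The eIF3 subunit Eif3h was at -1.64 and -2.07 at 48 h, against -0.22 and 0.19 with MPA (-1.84 ± 0.39, adjusted p = 0.0159), and the eIF2 gamma subunit Eif2s3x was at -1.47 and -1.66 at 12 h, against -0.14 and 0.13 with MPA (-1.56 ± 0.29, adjusted p = 0.0181). Eif3e, a further eIF3 subunit, fell by 1.04 ± 0.24 at 48 h, and Eif3m, another, by 0.90 ± 0.22 at 24 h.

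Among 16 mitochondrial synthetases 2 fell at 6 h, Ears2 (-1.31 ± 0.26) and Tars2 (-1.04 ± 0.18), none was called at 12 h or 24 h, and Ears2 fell at 48 h (-1.22 ± 0.26). The shares of the 16 that fell were 12.5%, 0%, 0% and 6.25% from 6 h to 48 h. Over all genes 0.94%, 2.62%, 4.2% and 6.02% fell at these times, so that the share at 48 h was near that of all genes. Of the 3 scaffold proteins of the cytoplasmic synthetase complex Eef1e1 fell at 6 h (-2.16 ± 0.39, adjusted p = 0.0296) and at 12 h (-2.20 ± 0.39, adjusted p = 0.0153). It was at -2.21 and -2.14 in the 6 h arrays, -1.77 and -2.66 in the 12 h arrays, -1.39 and -0.94 in the 24 h arrays, and -0.99 and 0.07 in the 48 h arrays, against -0.19 and 0.17 with MPA, and its slope over time rose (0.62 ± 0.14). Eprs, an enzyme of the same complex, was likewise lower at 12 h than at 48 h, but only in its chosen probe set did the 48 h value lie near MPA.

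Of 9 elongation and release factors the release factor Etf1 fell at 6 h (-1.70 ± 0.34), Eef1b2 at 12 h (-0.98 ± 0.22) and the ribosome-recycling ATPase Abce1 at 24 h (-1.73 ± 0.34). At 48 h Abce1, Eef1b2 and the translocase Eef2 (-0.63 ± 0.18) fell. The shares of the 9 that fell were 11.1% at 6 h, 12 h and 24 h and 33.3% at 48 h. Over all genes 0.94%, 2.62%, 4.2% and 6.02% fell at the 4 times. None of the 6 eIF2 alpha kinases and phosphatase subunits was called in any comparison, with fold changes against MPA between -0.60 and 0.61. Of 15 genes of mTORC1 and cap-binding control none was called at 6 h or 12 h, 1 fell at 24 h and 4 fell at 48 h, against falls in 4.2% and 6.02% of all genes at 24 h and 48 h. Ddit4, an inhibitor of mTORC1, was at -1.96 and -2.39 at 24 h and -2.07 and -1.81 at 48 h, against 0.03 and -0.04 with MPA, and fell at both times (-2.17 ± 0.25 and -1.94 ± 0.25). Pdcd4, an inhibitor of eIF4A, fell at 48 h as well (-0.99 ± 0.20), and so did Tsc1, a subunit of the complex that holds mTORC1 in check (-0.86 ± 0.21), and Rps6, a ribosomal protein that kinases downstream of mTORC1 phosphorylate (-1.39 ± 0.34).

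A list of 17 ATF4 and amino acid response genes was mixed. It had 2 falls at 6 h, 4 falls at 12 h, then 3 at each later time, against 0.94%, 2.62%, 4.2% and 6.02% of all genes, and 1 rise, Vldlr at 48 h (2.85 ± 0.72), against 6.47% of all genes. All falls were in the 4 genes Slc7a1, Slc7a5, Psat1 and Shmt2. Slc7a1, a carrier of basic amino acids, was at -2.10 and -1.85 in the 6 h arrays, -1.97 and -1.55 in the 12 h arrays, -1.26 and -1.23 in the 24 h arrays, and -1.15 and -0.57 in the 48 h arrays, against 0.07 and -0.07 with MPA. It fell at all 4 times, with a slope over the MFP times that rose (0.39 ± 0.08 per doubling). Slc7a5, which imports large neutral amino acids, fell at 6 h (-1.28 ± 0.26), 12 h (-1.39 ± 0.26) and 24 h (-1.07 ± 0.26). The serine synthesis enzyme Psat1 fell at 12 h (-2.88 ± 0.45) and 48 h (-2.34 ± 0.45), and Shmt2, the mitochondrial serine hydroxymethyltransferase, at 12 h, 24 h and 48 h. Phgdh, the first enzyme of serine synthesis, had positive fold changes at 6 h (1.52 ± 0.94), 24 h (1.75 ± 0.94) and 48 h (2.39 ± 0.94) and a negative one at 12 h (-0.33 ± 0.94), none of them called. Its 24 h arrays were far apart, at -0.04 and 3.48. The exocrine pancreas markers had medians of 0.995 and 6.63 on the same arrays, and a relation was not tested. The transporter genes Slc3a2, Slc7a11 and Slc6a9 were at 0.59, 0.46 and 0.34 at 48 h and were not called either. Other uncalled genes lay lower. Atf4 itself stood between -0.67 and -0.22 on the MFP arrays, against 0.09 and -0.10 with MPA. Atf5 stood between -0.67 and -0.15 on them, against 0.03 and -0.035 with MPA. The list as a whole had median fold changes of -0.06, -0.36, -0.49 and -0.34 from 6 h to 48 h. Of its 17 genes 10, 14, 12 and 10 had fold changes below 0 at these times, most of them not called.

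**Figure D5:**
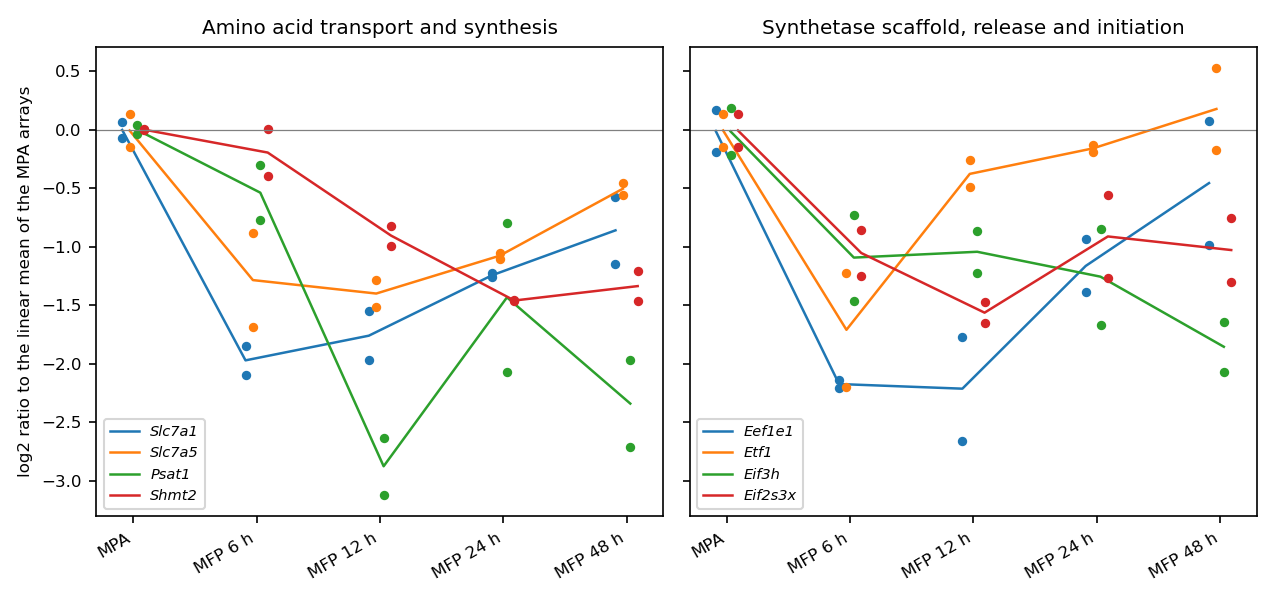
Log2 ratio (vertical axis) on each array (points) with group means (lines), from MPA through the 4 MFP times, for 4 genes of amino acid transport and synthesis (left) and 4 of translation outside the member list (right). Slc7a1 is between -2.10 and -0.57 on all MFP arrays, and Eef1e1 is near -2 at 6 h and 12 h and between -0.99 and 0.07 at 48 h.

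Of the proliferation genes, listed for comparison, 1 of 8 measured fell at 6 h, 5 fell at 12 h, all 8 at 24 h and 7 of 8 at 48 h, where 0.94%, 2.62%, 4.2% and 6.02% of all genes fell, with medians of -0.77, -1.41, -2.41 and -1.69. Myc was at -1.32 and -2.08 in the 6 h arrays, -1.75 and -1.71 in the 12 h arrays, -1.46 and -1.49 in the 24 h arrays, and -1.80 and -1.12 in the 48 h arrays, against 0.05 and -0.05 with MPA. It was thus below MPA by a similar amount at 6 h and at 48 h. In their chosen probe sets Eprs, Hars and Gars overlapped MPA at 48 h. Cars, Kars, Lars, Eif3a and Eif3b were called lower than MPA at that time. With the mean of its probe sets Eprs had a fold change of -0.44 at 48 h, which was not called. The other probe set of Hars was at -0.61 and -0.12 in the 48 h arrays, against -0.08 and 0.07 with MPA. A relation of the members to Myc was not tested.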

How the data were processed

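The authors deposited 1 series matrix of 12 columns, and per the submitters' processing notes the arrays (Affymetrix mouse genome arrays, RNA of formalin-fixed, paraffin-embedded tumours, 200 ng input) went through GCRMA, of a version not stated there. The authors' values are log2 ratios: in 45099 of 45101 probe sets both MPA arrays, put back on a linear scale, have a mean of 1 within 1e-04. Signal over background is therefore unknown. Precision is limited by the number of arrays.

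Of the probe sets 34945 had 1 symbol in the platform annotation and 932 had several, which were not used. For each gene its most variable probe set was kept, by SD across the 12 arrays, which includes differences between groups. Group means of all 12 arrays were fitted with limma 3.58.1 in R 4.3.3 (lmFit and eBayes, with 6 residual degrees of freedom and a prior of 4.21) and p-values were adjusted by Benjamini-Hochberg over 18193 genes at 0.05. All adjusted p-values are limma's and two-sided. The slope used log2 of the hours in the 8 MFP arrays. The contrast of 48 h with 12 h was added after the values had been seen. The scripts were tested on simulated data.

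Groups were taken from the source names. The members and lists were chosen with earlier results of these data known. The text names, per comparison, the 8 largest falls and rises among called members whose arrays do not overlap, or, where fewer than 3 passed, the 3 with the smallest p, besides Eif4ebp1, Eif4e, Eif5a, Aars and Gars, and up to 4 called genes of each other list. Further members are named to account for the list. Myc, Eif3m, Phgdh, Slc3a2, Slc7a11, Slc6a9, Atf4, Atf5 and the genes singled out by probe set were chosen after their values had been seen. Alternatives were the mean of a gene's probe sets, every probe set, arrays centred on their medians, array weights, a fit to the compared arrays alone, and each array left out.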

Additional observations from a re-analysis of the deposited data

Results flagged for a closer look

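In 4 members the fold change against MPA differed between 48 h and 12 h of MFP in a direct contrast, which was chosen after the values by time had been seen. The difference was 2.03 on the log2 scale for Eprs (0.07 at 48 h and -1.95 at 12 h), with both 48 h arrays above both 12 h arrays. It was 1.18 for Hars (-0.09 at 48 h and -1.27 at 12 h), 1.02 for Eif4e (-0.38 at 48 h and -1.41 at 12 h) and 0.90 for Eif5a (-0.21 at 48 h and -1.11 at 12 h), again with no overlap of the arrays. With the mean of each gene's probe sets the difference was 0.88 for Eprs (-0.44 at 48 h and -1.32 at 12 h), 0.79 for Hars, 0.58 for Eif5a and 0.27 for Eif4e (-0.22 at 48 h and -0.49 at 12 h), and Eif4e was then not called (adjusted p = 0.309). The exocrine pancreas markers stood at 4.69 and 5.44 at 48 h, against 0.17 and 0.87 at 12 h, and the macrophage markers at 1.85 and 1.97 at 48 h, against 0.19 and 0.10 at 12 h. Their part in the 4 differences was not tested.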

How the results depend on the processing

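No called member changed sign under any alternative run. Over the 35 members, all comparisons and all alternatives, 278 recomputed calls were kept, 250 were lost and 32 were new. Of the new ones 19 came with the mean of a gene's probe sets, which kept 33 and lost 16, and 6 came with 1 array left out, which kept 110 and lost 180. The counts of called members moved as follows, from 3 at 6 h, 7 at 12 h, 4 at 24 h, 5 at 48 h, 11 in the mean of the MFP times, 8 for 48 h against no MPA, 4 for 48 h against 12 h and 7 for the slope. With the mean of a gene's probe sets 6 h had 6. With arrays centred on their medians 24 h had 2, 48 h 3 and 48 h against no MPA 5. With array weights 24 h had 0, 48 h 2 and the mean of the MFP times 5. With only the arrays compared, which leaves 2 residual degrees of freedom in a contrast of 2 groups, the 4 times had 0 each, the mean of the MFP times 7, 48 h against no MPA 4 and 48 h against 12 h 2. Leaving out 1 array gave 0 at 6 h, 0 to 3 at 12 h, 0 to 1 at 24 h, 0 to 3 at 48 h, 0 to 9 for the mean, 0 to 3 for 48 h against no MPA, 0 to 2 for 48 h against 12 h, and 2 to 6 for the slope. A lone array was then assumed to vary like the other groups. Apart from the fits by probe set, the share of all genes called under these alternatives is not given, here or in the results above. Whether calls were lost in the members more than in other genes can therefore not be read from these counts. At 48 h without MPA replicate 2, 1 of the 3 calls was a rise (Eif4ebp1). No member was called without MPA against MPA under any alternative. No paired analysis was possible because the labels give no replicate numbers that tie arrays of different groups.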
